A study of Mus musculus with 8 samples.

Results

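The 40 genes described here encode lysosomal enzymes, lysosomal membrane proteins and regulators of lysosomal gene expression. They were chosen by symbol from a written list, without reference to a threshold, and all 40 were found once each among the 31053 gene identifiers of the count files. The list holds 12 proteases, 8 glycosidases, 6 lipid enzymes and activators, 7 membrane proteins, 3 subunits or accessory subunits of the vacuolar proton pump (V-ATPase), 2 sorting receptors and 2 transcription factors. Their transcripts were measured by QuantSeq, a sequencing method that samples each polyadenylated RNA near its 3′ end, in retinal pigment epithelium (RPE) eyecups of mice of strain C57/Bl6 at postnatal day 11 (P11). A total of 4 libraries came from Bbs8-/- mice, in which the ciliary gene Bbs8 (symbol Ttc8) is knocked out, and 4 came from wild-type littermates (Bbs8+/+), and no animal was treated. The comparison addresses whether loss of Bbs8 alters the expression of lysosomal genes in this tissue, at an age when photoreceptor outer segments are still growing.

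Lysosomes are acidic organelles in which hydrolases break down protein, sugar chains and lipid. The V-ATPase acidifies their lumen, mannose 6-phosphate receptors and sortilin carry newly made enzymes to them, and transcription factors of the Mitf, Tfeb and Tfe3 family switch on many of their genes through a DNA sequence called the CLEAR element. The RPE depends on lysosomes because each RPE cell engulfs and digests the shed tips of photoreceptor outer segments, and cathepsin D is the main aspartic protease known for this task.

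Total gene counts were between 1636725 and 2884983 per library, so that a floor of 3 counts stood at 1.04 to 1.83 CPM (counts scaled to a common library size). Ttc8 (chromosome 12, 98920574 to 98983238, mm10) was measured at 14.6 to 21.6 CPM in Bbs8+/+ and at 2.29 to 9.70 CPM in Bbs8-/- (log2 fold change -1.95 ± 0.32 SE, edgeR FDR 2.75e-06). Of 9 markers of the RPE, 8 were measured in every library and Best1 had 0 to 10 counts. The summed level of the 9, most of it Ttr, was 17458 to 18479 CPM in Bbs8+/+ and 18863 to 19224 CPM in Bbs8-/-. The eyecups also held other tissue, since 6 fibroblast genes summed to 34141 to 35892 CPM in Bbs8+/+ and 26770 to 27953 CPM in Bbs8-/-. The collagens Col1a1, Col1a2 and Col3a1 were past FDR 0.05 and lower, while Dcn and Lum were higher by sign and did not pass. Further marker sums differed without overlap between the genotypes. The sum was higher in Bbs8-/- for lens (217 to 260.1 CPM against 585 to 628 CPM, 16 genes) and for macrophages and microglia (550.2 to 610.4 CPM against 664 to 702 CPM, 16 genes), and it was lower for pigment cell genes (13743 to 14446 CPM against 11397 to 11960 CPM, 8 genes). No marker in these lists was at 0 counts in all libraries. In bulk tissue, fewer cells of a type and less RNA per cell cannot be told apart, and the part that tissue make-up plays in the results below was not tested.

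Of the 40 lysosomal genes, 37 did not pass the test between the genotypes. Ctsd rose and Psap and Tpp1 fell in Bbs8-/- at an FDR of 0.05 (edgeR quasi-likelihood F test, adjusted over 13813 genes). This makes 1 of 40 genes higher, beside 1.10% of all tested genes, and 2 of 40 lower, beside 1.14%. With DESeq2 the count lower was 0, and at FDR 0.01 it was 1. Counted by an unadjusted p under 0.05, 3 were higher and 8 were lower, beside 6.38% and 6.60% of all genes. By sign alone 18 were higher and 22 were lower. The median log2 fold change of the 40 was -0.04 and that of all tested genes was -0.004, and the median size of the change was 0.10 against 0.19 over all genes. The members were also measured more precisely, with a median standard error of 0.11 against 0.23. For 23 of the 40 the fitted difference was within 10% of the Bbs8+/+ level. All 40 passed the filter on low counts, and their fold changes ran from -0.36 for Lgmn, an asparaginyl endopeptidase, to 0.33 for Cln3, a lysosomal membrane protein, neither of which passed the test, and the value of Cln3 was 0.15 without Bbs8+/+ replicate 2.

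The members covered a wide range of expression. QuantSeq gives about 1 fragment per transcript at its 3′ end, so the CPM scale needs no division by transcript length. Mean levels over all 8 libraries ran from 7.89 CPM for Gla, the α-galactosidase, to 2035 CPM for Ctsd. Ctsd and Cd63 together stood apart, with 21.7% and 20.3% of the summed level of the 40, followed by Psap at 6.67%, Gpnmb at 6.65%, Npc2 at 5.54% and Lamp1 at 3.62%. The summed level of all 40 genes was 9108 to 9719 CPM in Bbs8+/+ and 9266 to 9650.4 CPM in Bbs8-/-, and these ranges overlapped. Without Ctsd the sum was 7274 to 7847 CPM and 7039.8 to 7360.5 CPM, which also overlapped.

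**Figure D1:**
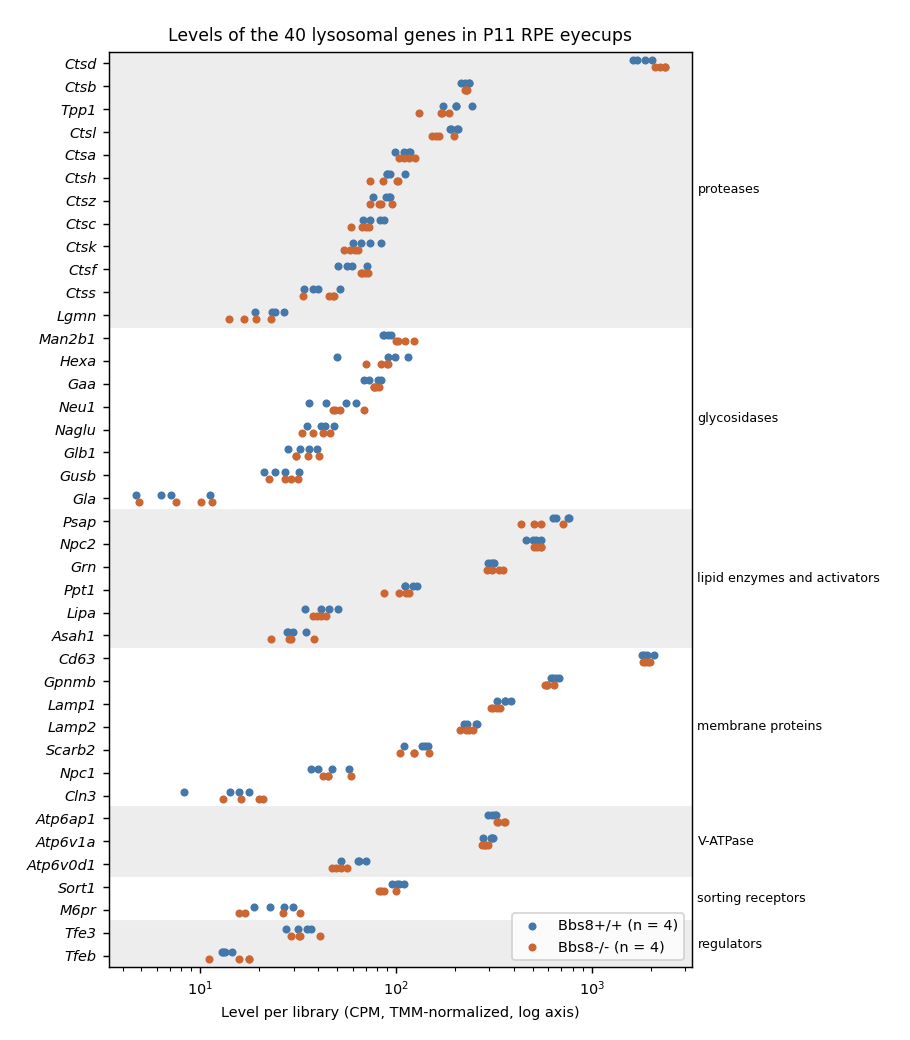
Level of each of the 40 lysosomal genes in every library (CPM after TMM normalization, log axis), grouped by role and ordered by mean level within a role, with 4 points per genotype. Ctsd and Cd63 have the highest means (2035 and 1907 CPM) and Gla the lowest (7.89 CPM), and in most rows the points of the genotypes overlap.

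Among the 12 proteases, Ctsd was the most abundant and had the lowest FDR of all 40 genes. Ctsd encodes cathepsin D and lies on chromosome 7 from 142375911 to 142388038 on the minus strand of mm10. Its level was 1627, 1709.5, 2020.5 and 1872 CPM in Bbs8+/+ replicates 1 to 4 and 2362, 2096, 2226 and 2371 CPM in Bbs8-/- replicates 1 to 4. Every knockout library was above every control library, the closest pair being control replicate 3 and knockout replicate 2. The means were 1807 ± 175 and 2264 ± 129.8 CPM (SD, n = 4), and the log2 fold change was 0.33 ± 0.045 (SE; 95% interval 0.24 to 0.41, edgeR FDR 1.21e-08), or 1.25-fold. Ctsd took 17.9% to 21.7% of the summed level of the 40 genes in Bbs8+/+ and 22.2% to 24.9% in Bbs8-/-. The gene overlaps Gm49369 on the same strand, which had 0 counts in all libraries. Macrophages also express Ctsd, and the summed level of 16 macrophage and microglia markers was 16.9% higher in Bbs8-/-, with 14 of the 16 higher by sign and 2 (Csf1r and Lyz2) past FDR 0.05. The part of these cells in the Ctsd result was not tested.

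Tpp1, tripeptidyl peptidase 1, removes tripeptides from the N terminus of proteins and lies on chromosome 7 from 105744811 to 105752235. It was measured at 174.5, 243, 202 and 204 CPM in Bbs8+/+ and at 169, 186, 172 and 130.3 CPM in Bbs8-/-. The genotypes overlapped, because knockout replicate 2 was above control replicate 1. The means were 206 ± 28.4 and 164 ± 23.8 CPM, and the log2 fold change was -0.33 ± 0.086 (edgeR FDR 0.0143). This call rested on single libraries and on the test. It was lost without Bbs8+/+ replicate 2 (-0.23, edgeR FDR 0.249), without Bbs8-/- replicate 4 (-0.23, edgeR FDR 0.238) and with DESeq2 (FDR 0.108), and the two-sided exact permutation test over the libraries gave p = 0.0571, where 0.0286 is the smallest that 4 against 4 libraries allow.

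The remaining 10 proteases did not pass the test, and their lowest FDR was 0.149. It belonged to Ctsl, cathepsin L, a cysteine protease, with 189 to 206 CPM in Bbs8+/+ and 153 to 197 CPM in Bbs8-/- (log2 fold change -0.23 ± 0.082). Ctsl passed the threshold in a single refit, without Bbs8-/- replicate 3, its highest knockout library (edgeR FDR 0.0425). Ctsb, cathepsin B and the next most abundant protease after Ctsd, was nearly level, with 214 to 236 CPM and 225 to 232 CPM and a log2 fold change of 0.002 (95% interval -0.14 to 0.15). Ctsk, the collagen-degrading cathepsin K, had a log2 fold change of -0.26 (unadjusted p under 0.05, edgeR FDR 0.366). The 8 cysteine cathepsins Ctsb, Ctsc, Ctsf, Ctsh, Ctsk, Ctsl, Ctss and Ctsz ran from -0.26 to 0.22, with 3 higher and 5 lower by sign and 0 past the FDR threshold. The serine carboxypeptidase Ctsa (0.03) and Lgmn (-0.36 ± 0.22) did not pass either. The summed level of the 12 proteases was 2782 to 3177 CPM in Bbs8+/+ and 3212 to 3493 CPM in Bbs8-/-, without overlap, and most of it was Ctsd. Ctsa overlaps Pltp and Neurl2, Ctsb overlaps Fdft1 and Ctsz overlaps Nelfcd on the opposite strand, and whether counting used strand was not given in the sources used here, so the levels of these 3 are uncertain.

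**Figure D2:**
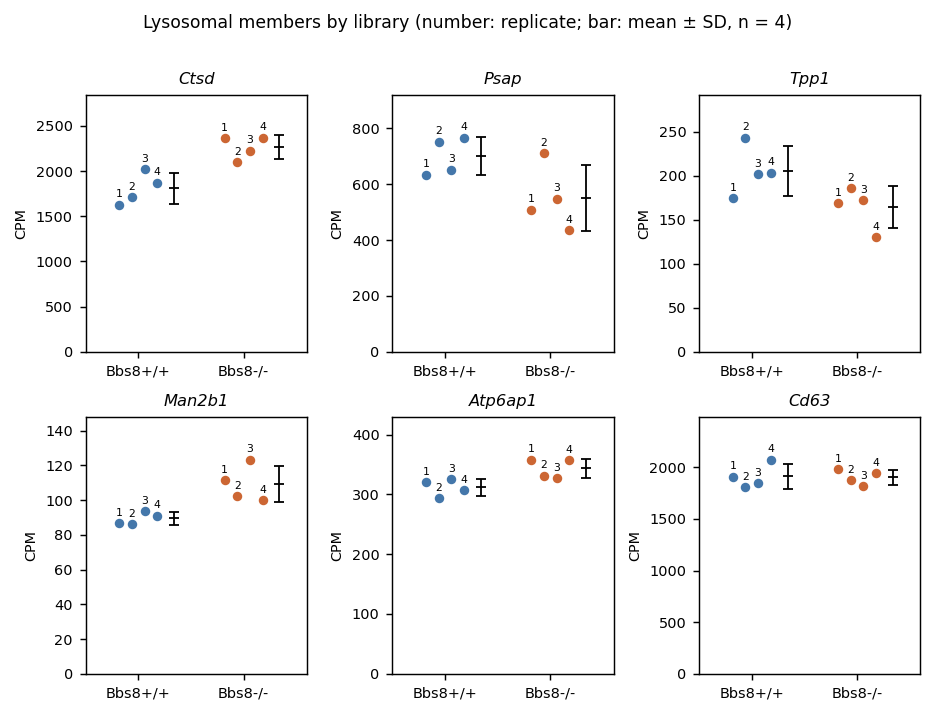
Level in CPM (linear axis from 0) of Ctsd, Psap, Tpp1, Man2b1, Atp6ap1 and Cd63 in each library, numbered by replicate, with the mean ± SD of 4 libraries per genotype. Ctsd, Man2b1 and Atp6ap1 do not overlap between genotypes, Psap falls to 435 CPM in knockout replicate 4 but stays at 712 CPM in replicate 2, and Cd63 is level.

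Of the 8 glycosidases, which remove sugars from glycoproteins, glycolipids and glycogen, none passed the test, with 1 higher at an unadjusted p under 0.05, beside 6.38% of all tested genes, and 6 were higher by sign. That gene was Man2b1, the lysosomal α-mannosidase, on chromosome 8 from 85083270 to 85098282. Its level was 86.6, 86.1, 93.9 and 91.1 CPM in Bbs8+/+ and 112, 102, 123 and 99.9 CPM in Bbs8-/-. Every knockout library was above every control library. The log2 fold change was 0.29 ± 0.104 (95% interval 0.09 to 0.49) and the edgeR FDR was 0.147. Over the 40 genes, 3 had non-overlapping groups with Bbs8-/- higher (Ctsd, Man2b1 and Atp6ap1), beside 3.61% of all tested genes, and 0 had non-overlapping groups with Bbs8-/- lower, beside 3.76%.

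Hexa, the α subunit of β-hexosaminidase, varied widely among the controls, with a coefficient of variation of 31.4% against 11.3% in Bbs8-/-. It stood at 49.98 CPM in Bbs8+/+ replicate 1 and between 90.8 and 116 CPM in the other control libraries, against 70.6 to 91.0 CPM in Bbs8-/-. Its log2 fold change of -0.09 (95% interval -0.34 to 0.15) went from -0.28 to 0.07 when single libraries were left out. Gaa, Glb1, Gusb, Naglu and Neu1, the acid glucosidase, β-galactosidase, β-glucuronidase, α-N-acetylglucosaminidase and sialidase, had mean levels of 26.8 to 77.5 CPM and log2 fold changes between -0.07 and 0.12. Gla had the largest standard error (0.23 ± 0.353) and coefficients of variation of 38.1% and 34.6%.

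The 6 lipid enzymes and activators held the other gene that fell. Psap encodes prosaposin, the precursor of the saposins that present sphingolipids to their hydrolases, and lies on chromosome 10 from 60277627 to 60302597. It was measured at 635, 753, 653 and 768 CPM in Bbs8+/+ and at 509, 712, 549 and 435 CPM in Bbs8-/-. In the knockout, 3 libraries were below every control, while replicate 2 was within the control range. The log2 fold change was -0.35 ± 0.065 (edgeR FDR 5.99e-05). The coefficient of variation was 21.2% in the knockout libraries and 9.67% in the controls, where counting error alone gives 3.04% and 2.39%. The call held in all 8 refits that left out a library, between -0.25 (without Bbs8-/- replicate 4) and -0.50 (without Bbs8-/- replicate 2), but not with DESeq2 (-0.35, FDR 0.408) or in the exact permutation test (p = 0.0857).

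Npc2, which carries cholesterol out of the lysosomal lumen, was the next most abundant gene of this group. Its level was 503, 518, 462 and 548 CPM in Bbs8+/+ and 506, 553, 525 and 551 CPM in Bbs8-/-. The ranges overlapped, and the log2 fold change was 0.07 ± 0.059 (95% interval -0.04 to 0.19, edgeR FDR 0.669). Grn, progranulin, had 296 to 317 CPM and 291 to 352 CPM (0.06). Ppt1, palmitoyl-protein thioesterase 1, had a log2 fold change of -0.18 (edgeR FDR 0.468), and Lipa and Asah1, the acid lipase and acid ceramidase, had -0.08 and -0.02. Grn overlaps Fam171a2 and Ppt1 overlaps Cap1 on the opposite strand, so their levels are uncertain too.

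None of the 7 membrane proteins passed the test, with 2 lower at an unadjusted p under 0.05, beside 6.60% of all tested genes. Cd63, a tetraspanin of late endosomes and lysosomes, was the most abundant. Its level was 1909, 1809.8, 1850.5 and 2075 CPM in Bbs8+/+ and 1983, 1873, 1817 and 1941 CPM in Bbs8-/-. The groups lay on top of each other, and the log2 fold change was -0.006 ± 0.043 with a 95% interval of -0.09 to 0.08. Cd63 thus did not pass the test at a mean level and standard error close to those of Ctsd. Their difference in log2 fold change was not itself tested.

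Gpnmb, a transmembrane glycoprotein of melanosomes and lysosomes, was at 679, 620.4, 637 and 659.8 CPM in Bbs8+/+ and at 590.0, 575, 593 and 644 CPM in Bbs8-/-. Only knockout replicate 4 reached the control range. The log2 fold change was -0.11 ± 0.056 (edgeR FDR 0.383). Lamp1, a major glycoprotein of the lysosomal membrane, was at 362, 361, 329 and 389 CPM and at 340.2, 311, 327 and 305 CPM, with a log2 fold change of -0.17 ± 0.066 (edgeR FDR 0.202). These groups overlapped through control replicate 3 and knockout replicate 1. Its relative Lamp2 (-0.07), the lipid and enzyme receptor Scarb2 (-0.10), the cholesterol transporter Npc1 (0.07) and Cln3 (0.33 ± 0.251, 13.0 to 21.0 CPM in Bbs8-/-) did not pass, and the groups overlapped in each. Npc1 overlaps Rmc1 and Gm15956 (35 and 10 counts over all libraries, beside 834 for Npc1) and Cln3 overlaps Apobr (48 beside 275) on the opposite strand, with the same limit.

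**Figure D3:**
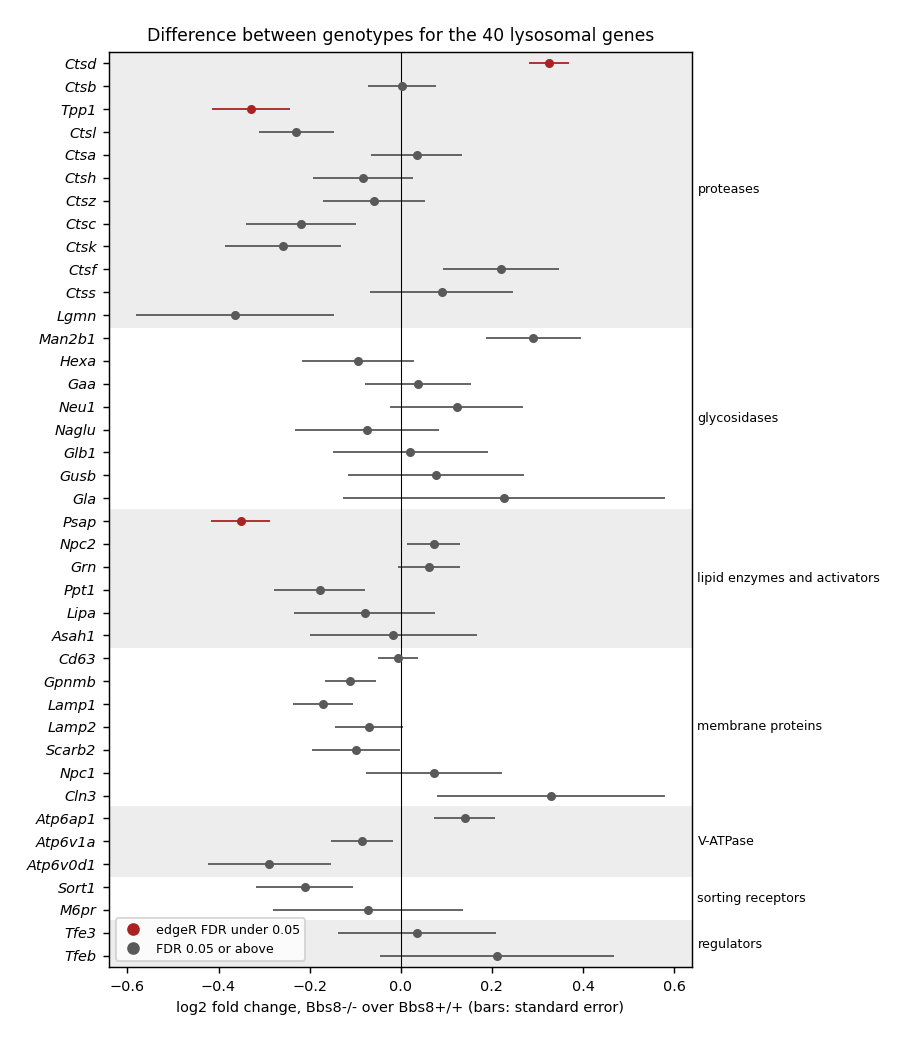
Log2 fold change of Bbs8-/- over Bbs8+/+ for each of the 40 genes with its standard error, from the fit over 13813 genes and 8 libraries, in the same order as the plot of levels. The 3 genes past an FDR of 0.05 are Ctsd at 0.33, Tpp1 at -0.33 and Psap at -0.35, and the wide bars belong to genes of low level such as Gla (SE 0.35).

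The V-ATPase members did not pass the test. Atp6ap1, an accessory subunit encoded on the X chromosome (74297097 to 74304721), was at 321, 293, 325 and 308 CPM in Bbs8+/+ and at 358, 332, 327 and 357 CPM in Bbs8-/-. The genotypes did not overlap, but control replicate 3 and knockout replicate 3 nearly met at 325 and 327 CPM. The log2 fold change was 0.14 ± 0.067 (edgeR FDR 0.347). Lamp2, Gla and Tfe3 are X-linked too, and the libraries differed in sex-linked transcripts: the sum of 4 Y-linked genes was 59.0 to 64.9 CPM in Bbs8+/+ and 108 to 119.5 CPM in Bbs8-/-, and Xist was 640.5 to 746 CPM and 569.9 to 625 CPM. Every library held both Xist and Y-linked transcripts, while the study's methods treat every single animal as a replicate. The part of the sex-linked difference in the 4 X-linked values was not tested. The catalytic subunit Atp6v1a had a log2 fold change of -0.09 and the stalk subunit Atp6v0d1 had -0.29 ± 0.135 (unadjusted p under 0.05, edgeR FDR 0.334).

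Both sorting receptors were lower by sign and neither passed the test. Sort1, sortilin, was at 94.95 to 109 CPM in Bbs8+/+ and 82.1 to 99.9 CPM in Bbs8-/- (-0.21 ± 0.106, edgeR FDR 0.385). M6pr, the cation-dependent mannose 6-phosphate receptor, was at 18.9 to 29.9 CPM and 15.7 to 32.2 CPM (-0.07 ± 0.209).

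The transcription factors among the 40 were measured at low levels. Tfeb was at 13.4, 13.0, 14.5 and 12.9 CPM in Bbs8+/+ and at 15.8, 17.8, 11.0 and 17.7 CPM in Bbs8-/-. The knockout libraries lay on both sides of the controls, and the log2 fold change was 0.21 ± 0.256 (95% interval -0.29 to 0.71, edgeR FDR 0.813). Tfe3 was at 31.5, 35.0, 36.9 and 27.2 CPM in Bbs8+/+ and at 32.1, 40.7, 28.9 and 31.7 CPM in Bbs8-/-. Its groups overlapped throughout (0.04 ± 0.174, edgeR FDR 0.963). Both intervals are wide at this depth, and transcript levels do not report the movement of these proteins into the nucleus, which is the step by which they are chiefly controlled.

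A wider list of 103 other lysosomal genes was read from the same fit, and 100 of them passed the filter on low counts. None rose at FDR 0.05, with 6 higher at an unadjusted p under 0.05, beside 6.38% of all tested genes, and DESeq2 also called 0. Ids, iduronate sulfatase, passed in a single refit, without Bbs8+/+ replicate 1 (log2 fold change 0.71, edgeR FDR 0.0293, against 0.56 and 0.0842 with all libraries). Ids lies on the X chromosome, and the part of the sex-linked difference in its value was not tested. Mitf, Rragc and Zkscan3 fell, 3 of 100 beside 1.14% of all tested genes, and 9 were lower at an unadjusted p under 0.05, beside 6.60%. The groups did not overlap in 3 genes that were higher, beside 3.61%, and in 6 that were lower, beside 3.76%. The median log2 fold change of the 100 was -0.03. The 35 hydrolases (median -0.02), 26 membrane and transport genes (-0.02), 14 further V-ATPase genes (-0.03) and 15 sorting genes (0.01) had 0 genes past the threshold. Both tested cathepsin inhibitors, named after their values were seen, are among those 9 and those 6 but did not pass the FDR threshold. Cst3, cystatin C and the most abundant gene of the wider list, was at 4038 to 4218 CPM in Bbs8+/+ and 3778 to 3919.7 CPM in Bbs8-/- (-0.10 ± 0.036, edgeR FDR 0.160), and Cstb, cystatin B, was at 37.4 to 51.3 CPM and 24.9 to 34.4 CPM (-0.45 ± 0.167, edgeR FDR 0.165).

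The 3 genes that fell were all among the 8 tested regulators of lysosomal genes and of nutrient sensing at the lysosome, beside 1.14% of all tested genes. By sign, 3 of these 8 regulators were higher and 5 were lower. The list was chosen with earlier results of these data known, so the share among its regulators is not a test of them as a group. Mitf, the transcription factor of pigment cells and RPE that is related to Tfeb and Tfe3, was at 257, 280.3, 299 and 235 CPM in Bbs8+/+ and at 233, 205, 213 and 182 CPM in Bbs8-/-. All knockout libraries were below all controls, by a small margin between control replicate 4 and knockout replicate 1. The log2 fold change was -0.36 ± 0.076 (edgeR FDR 0.000669), the call held in all 15 refits, and Mitf moved in the same direction as the summed pigment cell markers, of which 5 of 8 were past FDR 0.05 and lower. The summed RPE markers moved the other way, with 7 of 9 higher by sign and 1, Otx2, past FDR 0.05. Most of that sum was Ttr, and Rpe65 (-0.13, edgeR FDR 0.0842) and Lrat (-0.10) were lower by sign. The part of pigmented tissue in the Mitf result was not tested.

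Rragc encodes a Rag GTPase that recruits mTORC1 to the lysosome. It was at 40.5, 38.5, 43.0 and 46.1 CPM in Bbs8+/+ and at 24.9, 31.3, 24.3 and 28.0 CPM in Bbs8-/- (-0.63 ± 0.169, edgeR FDR 0.0184). The groups did not overlap, but the call was lost without Bbs8+/+ replicate 4 (FDR 0.0801), without Bbs8-/- replicate 1 (FDR 0.0738) and without Bbs8-/- replicate 3 (FDR 0.0949). Its log2 fold change stayed between -0.70 and -0.58 in all 15 refits. Zkscan3, a zinc finger protein described as a repressor of autophagy and lysosome genes, was at 76.7, 89.6, 72.4 and 75.1 CPM and at 46.7, 53.8, 55.9 and 51.8 CPM. It was lower in every knockout library (-0.59 ± 0.127, edgeR FDR 0.00103) and was called in all 15 refits. Rragd, another Rag GTPase, named after its values were seen, was at 51.9 to 69.4 CPM and 41.2 to 50.9 CPM (-0.37 ± 0.136) and did not pass (edgeR FDR 0.160).

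**Figure D4:**
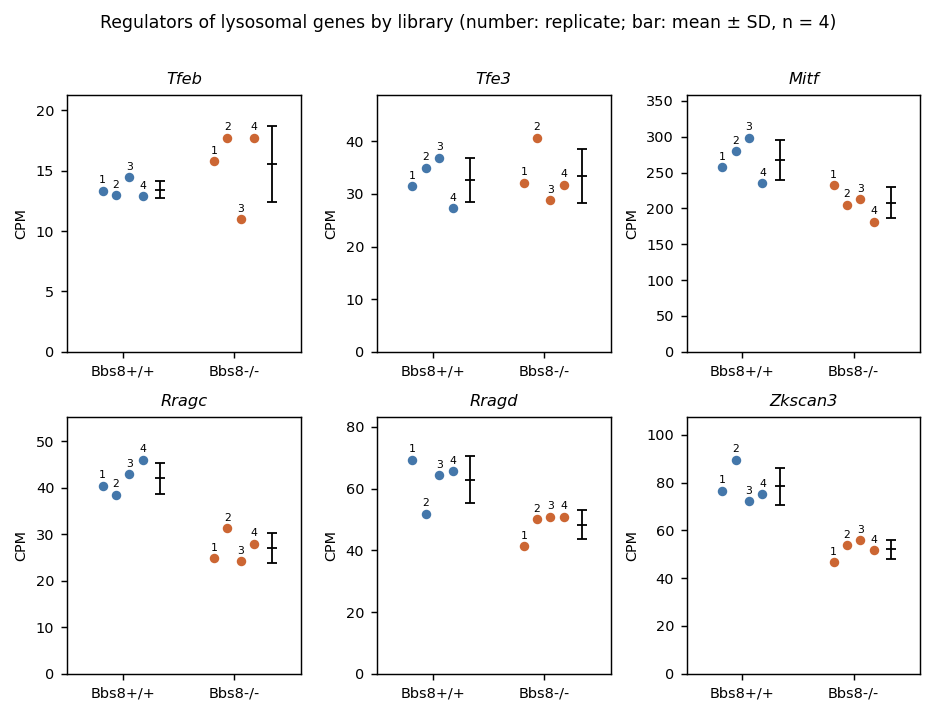
Level in CPM (linear axis from 0) of the regulators Tfeb, Tfe3, Mitf, Rragc, Rragd and Zkscan3 in each library, numbered by replicate, with the mean ± SD of 4 libraries per genotype. Mitf, Rragc, Rragd and Zkscan3 are lower in every knockout library than in every control, and Tfeb and Tfe3 overlap.

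The promoters of the members were searched for the recognition sequence of the Mitf, Tfeb and Tfe3 family. RefSeq promoters (250 bases before to 50 after each transcription start, GRCm38.p6) were available for 34 of the 40. The E-box CACGTG and the longer palindrome TCACGTGA, which contains it and forms the core of the CLEAR element, read the same on both strands. TCACGTGA was present in 6 of 34 members (17.6%) and in 1.12% of the 27025 genes of the table (0.974% of 32851 promoters), and CACGTG in 13 of 34 (38.2%) and 8.09% of genes (7.15% of promoters). Lysosomal genes are known to carry this element, so these shares describe the list and say nothing about the difference between the genotypes. The matches with 6 bases on each side are shown because they include the 1 gene that rose, with the palindrome in capitals, each read 5′ to 3′ on the strand of its gene, and positions counted from the transcription start.
Ctsd at -99, chr7:142387913-142387932 (minus strand): cgcgtcTCACGTGAcccgtt
Atp6v0d1 at -4, chr8:105566055-105566074 (minus strand): ctgcggTCACGTGAgacgcg
Atp6v1a at -132, chr16:44139378-44139397 (minus strand): tttaaaTCACGTGAtaggct
Cln3 at -122, chr7:126583345-126583364 (minus strand): gtactgTCACGTGAccccca
Ctsa at -13, chr2:164833754-164833773 (plus strand): aaactgTCACGTGAtgcaga
Ctsa at 5, chr2:164833771-164833790 (plus strand): agatgcTCACGTGAccagag
Gla at -228, chrX:134601220-134601239 (minus strand): gattgaTCACGTGAgcatct
Gla at -195, chrX:134601187-134601206 (minus strand): tctcggTCACGTGAgcaact

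Of the 6 genes with the palindrome, Ctsd alone passed the test, so the signs of the others are not resolved. The log2 fold changes of the 6 ran from -0.29 for Atp6v0d1 to 0.33 for Cln3, with a median of 0.13. By sign, 4 were higher and 2 lower. The 13 genes with CACGTG had a median of 0.02 and the 21 matched genes without it had -0.06. Whether the sequence bears on the changes was not tested. Ctsd held a further CACGTG at -245, and its palindrome falls inside the first exon of a longer Ctsd transcript in GENCODE M21, upstream of the RefSeq start. The palindromes of Ctsa, Cln3 and Atp6v1a also lie within the GENCODE M21 span of their genes, and those of Atp6v0d1 and Gla lie outside it. Neither RefSeq start of Psap nor that of Tpp1 had CACGTG in its window. Of the 3 called genes of the wider list, Rragc had it at -112, none of the 3 windows of Mitf held it, and Zkscan3 was not searched. A match describes the letters of the window and does not show that a factor binds there.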

How the data were processed

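RNA from 4 Bbs8+/+ and 4 Bbs8-/- P11 eyecups was sequenced by QuantSeq. The authors trimmed the reads, aligned them with STAR to mm10 and counted unique alignments per gene with htseq-count, and deposited raw counts, 1 file per library. The strand setting was not given in the sources used here. Reads outside genes stayed out of library sizes (42.1% to 44.4% of uniquely aligned reads). No identical files were found. The study's methods count each animal as a biological replicate, and every library held both Xist and Y-linked transcripts. Here n counts libraries. The edgeR p-values and SE use a spread between libraries that is estimated partly from all genes, not from each gene's own libraries alone. For a gene with uneven libraries, such as Psap, they can understate its own spread.

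Tests used edgeR 4.0.16 on the 13813 genes that reached 1 CPM in 4 or more libraries (R 4.3.3; TMM, quasi-likelihood F test, genotype only, two-sided, Benjamini-Hochberg FDR 0.05), as the study's methods name edgeR and this threshold. Levels are CPM after TMM scaling (mean ± SD, n = 4). The SE is the size of the log2 fold change divided by the square root of F, and 95% intervals use 1.96 SE. The floor covers counting error only. The scripts were tested on simulated data. Symbols came from a table of Ensembl identifiers (30934 of 31053 matched), positions (1-based) from GENCODE M21, promoters from RefSeq.

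Values by library are given for members past the FDR threshold or without overlap, for the 6 most abundant, and for Tfeb and Tfe3; from the wider list, for genes past the threshold. Ctsl, Ctsb, Hexa, Ids, Cst3, Cstb, Rragd and other members given by range were chosen after their values were seen. The members and lists were chosen with earlier results of these data known. The Y-linked and Xist sums and the permutation test were added after seeing the data. Alternatives were RLE factors, total counts, filterByExpr, no filter, the likelihood ratio test, DESeq2 1.42.0, a replicate block, FDR 0.01 and leaving out each library.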

Additional observations from a re-analysis of the deposited data

Results flagged for a closer look

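Within a genotype, 2 members had a library far from the other 3. Ctsh was at 110.5 CPM in Bbs8+/+ replicate 2, where the other controls were at 89.6 to 92.9 CPM. Npc1 was at 59.1 CPM in Bbs8-/- replicate 3, where the other knockouts were at 42.3 to 44.9 CPM. Of 86 groups of 4 libraries examined in this way (40 members and the called genes of the wider list), these 2 stood out, and chance alone gives about 4.3 (5%). The share of uniquely aligned reads outside annotated genes, which enters no comparison of the report, had a mean of 42.6% in Bbs8+/+ and 44.3% in Bbs8-/-, with ranges of 42.1% to 43.4% and 44.1% to 44.4% that did not overlap.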

How the results depend on the processing

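Ctsd was called higher in all 15 refits (0.28 to 0.38), and Ctsd was the 1 member higher in each. The number of members lower was 0 with DESeq2 and 1 at FDR 0.01, against 2, and 1 to 3 when single libraries were left out. Psap lost its call with DESeq2, and Tpp1 with DESeq2, at FDR 0.01 and without Bbs8+/+ replicate 2 or Bbs8-/- replicate 4. In the wider list the number higher was 0 to 1 without single libraries, and the number lower 2 to 3. The median of the members stayed between -0.045 and -0.0051 without single libraries. Of the 37 members not called, 15 changed sign at least once, always at an edgeR FDR of 0.814 or more in the refit with the changed sign, and 22 never did. With total counts only, Ctsb was -0.0063. The lowest and highest log2 fold changes without single libraries were -0.012 and 0.079 for Ctsa, -0.023 and 0.024 for Ctsb, -0.15 and 0.0072 for Ctsh, -0.028 and 0.037 for Cd63, -0.051 and 0.21 for Npc1, -0.28 and 0.069 for Hexa, -0.0068 and 0.087 for Gaa, -0.066 and 0.10 for Glb1, -0.0066 and 0.19 for Gusb, -0.16 and 0.0069 for Naglu, -0.0063 and 0.26 for Neu1, -0.17 and 0.014 for Lipa, -0.16 and 0.095 for Asah1, -0.072 and 0.10 for Tfe3, and -0.29 and 0.076 for M6pr. The cause was not tested. The replicate block gave 1 member higher and 2 lower and 0 and 3 genes of the wider list, as without it (Psap -0.37). The replicate numbers do not pair the libraries, since same-numbered libraries correlated at -0.056 to 0.02 over 6626 genes. Depth limits the low genes, with standard errors of up to 0.35 (Gla).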
